A study of Homo sapiens with 2 samples.

Results

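The late-numbered microRNAs (miRNAs) of A549 cells were described here, that is, the mature miRNAs whose number in their name is 3000 or higher. The members were all listed mature miRNAs with such a name, except miR-4521 and miR-4500, which the rule leaves out. There were 225 members among 859 listed mature miRNAs and 5475 listed small RNA features. The members were chosen by name only and not by their counts, but the left-out pair was chosen with values of these data known.

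A549 is a human lung adenocarcinoma cell line. The cells were grown in DMEM with 10% fetal calf serum and kept for 24 h at 20% oxygen (normoxia) or at 1.2% oxygen (hypoxia), and total RNA was extracted with Trizol. For each condition 1 SOLiD small RNA library was made by ligation from 2 µg of RNA, with 11 and then 4 PCR cycles and without molecular identifiers. With a single library for each oxygen level there is no replicate, so no test was made and no p-value is given.

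The number of a miRNA is given in the order of registration, so a high number marks a sequence that was annotated late, mostly from deep sequencing. A miRNA is cut from the stem of a hairpin precursor, and either arm of the hairpin (5p or 3p) can give a mature strand. The strand binds its target mRNAs mainly through the seed, bases 2 to 8 from its 5′ end, and miRNAs with the same seed are grouped in a family. Late-numbered miRNAs include mirtrons, hairpins on the opposite strand of known miRNA genes, and sequences that overlap other small RNAs such as tRNAs or snoRNAs.

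The following sequences belong to the 5 most abundant members, which carried most of the members' counts. They are written 5′ to 3′ with the seed in capitals and come from RefSeq (GRCh38.p14), in which 193 of the 225 members had a mature entry.
miR-4301: uCCCACUAcuucacuuguga
miR-3182: gCUUCUGUaguguaguc
miR-4256: aUCUGACCugaugaaggu
miR-4791: uGGAUAUGaugacugaaa
miR-4454: gGAUCCGAgucacggcacca
The seeds of these 5 all differ, and none of them is shared with another listed mature miRNA.

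These sequences lie at chr11:113450059-113450078 on the minus strand for miR-4301, at chr16:83508349-83508365 on the plus strand for miR-3182 and at chr1:112461806-112461823 on the minus strand for miR-4256. miR-4791 lies at chr3:19314907-19314924 and miR-4454 at chr4:163093607-163093626, both on the minus strand. By the GENCODE version 29 annotation, the miR-4301 hairpin is in an intron of DRD2, a dopamine receptor gene, and the miR-3182 hairpin is in an intron of CDH13, which encodes a cadherin. Both are on the strand of their host gene. miR-4256 and the miR-4791 hairpin are on the strand opposite to introns of CTTNBP2NL and KCNH8, and no annotated gene overlaps miR-4454.

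The next 4 sequences were the members with the highest ratios of hypoxia to normoxia among those that had a RefSeq entry and a mean log2 CPM above 3, the expression filter used for the ratios.
miR-4473: cUAGUGCUcuccguuacaagua
miR-4270: uCAGGGAGucaggggagggc
miR-3129-3p: aAACUAAUcucuacacugcugc
miR-3614-5p: cCACUUGGaucugaaggcugccc
They lie at chr9:20411161-20411182 (miR-4473), chr3:15496279-15496298 (miR-4270), chr2:189133044-189133065 (miR-3129-3p) and chr17:56891319-56891341 (miR-3614-5p), each on the minus strand. Their hairpins are within introns of MLLT3, COLQ and COL5A2 and within an untranslated region of TRIM25, on the strand of each gene.

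The table held 6449337 counts in normoxia and 13115226 in hypoxia, of which 4514818 and 8600160 were on mature miRNAs. Values are given as counts and as counts per 1000000 mature miRNA counts (CPM), and every interval is an exact 95% interval that covers counting error only. miR-210, the miRNA best known for its induction by low oxygen, had 954 CPM in normoxia and 2657 CPM in hypoxia, a log2 ratio (hypoxia over normoxia) of 1.48 with an interval from 1.43 to 1.52. Of the epithelial markers, miR-200c-3p had 109 and 213 counts, miR-141-3p 168 and 219 and miR-205-5p 12 and 15, and miR-200b-3p, which was not in the marker list and was looked up afterwards, had 3972 and 9327. Of the markers of other cell types the endothelial miR-126-3p was the highest (809 and 1630), followed by the neuronal miR-9-5p (232 and 451), the endothelial miR-126-5p (192 and 270) and miR-451a of blood cells (82 and 191). The muscle miR-133a had 0 and 18 counts, blood miR-142-3p and miR-142-5p, liver miR-122-5p and neuronal miR-124-3p had at most 6 in a library, and miR-223-3p of blood and miR-1 and miR-206 of muscle were not listed.

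Together the 225 late-numbered miRNAs had 11323 counts under normoxia and 21438 under hypoxia. The normoxia share of mature counts was 0.251% (interval 0.246% to 0.256%) and the hypoxia share was 0.249% (0.246% to 0.253%), so the shares in both libraries lay within each other's intervals. The log2 ratio of the sums was -0.01 (-0.04 to 0.02). This holds for the mature total only, since the shares were 0.176% and 0.164% of all table counts. They were 1.62% and 1.41% when the 10 most abundant miRNAs of either library, 11 in all, were taken out of the total. Totals without the 10 most abundant miRNAs leave out these 11 throughout. The 225 names are thus a large part of the 859 listed mature miRNAs and hold a very small part of their counts.

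Most members were near the limit of detection. The median member had 8 counts over both libraries (quartiles 4 and 28, highest 14335), and the median of the 632 mature miRNAs with lower numbers or let-7 names was 102.5. Fewer than 10 counts in all were found for 122 members (54.2%) and for 127 of the 632 others (20.1%). No feature with fewer than 3 counts in all is in the table, so rarer late-numbered miRNAs were not seen here.

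In normoxia 125 members had 3 or more counts, 52 had 10 or more and 11 had 100 or more. The corresponding numbers in hypoxia were 186, 75 and 19, in a library with 1.91 times the mature counts. At 0 counts, 32 members were found in normoxia and 2 in hypoxia, which allows up to 0.664 CPM in normoxia and 0.349 CPM in hypoxia by a limit of 3 counts. The upper ends of the exact 95% intervals for 0 counts are 0.817 and 0.429 CPM.

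The level was lower in each higher band of numbers up to the 3000s and not beyond. The median over both libraries was 1648 counts for the 99 mature miRNAs numbered 1 to 99, 80 for the 434 with numbers from 100 to below 1000 and 23 for the 82 with numbers from 1000 to below 3000. It was 7 for the 97 members of the 3000s, 9 for the 101 of the 4000s and 11 for the 27 of the 5000s. The 3 bands of late-numbered miRNAs had overlapping quartiles, and the 4000s held 8045 of the 11323 counts in normoxia, 4964 of them on miR-4301.

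**Figure D1:**
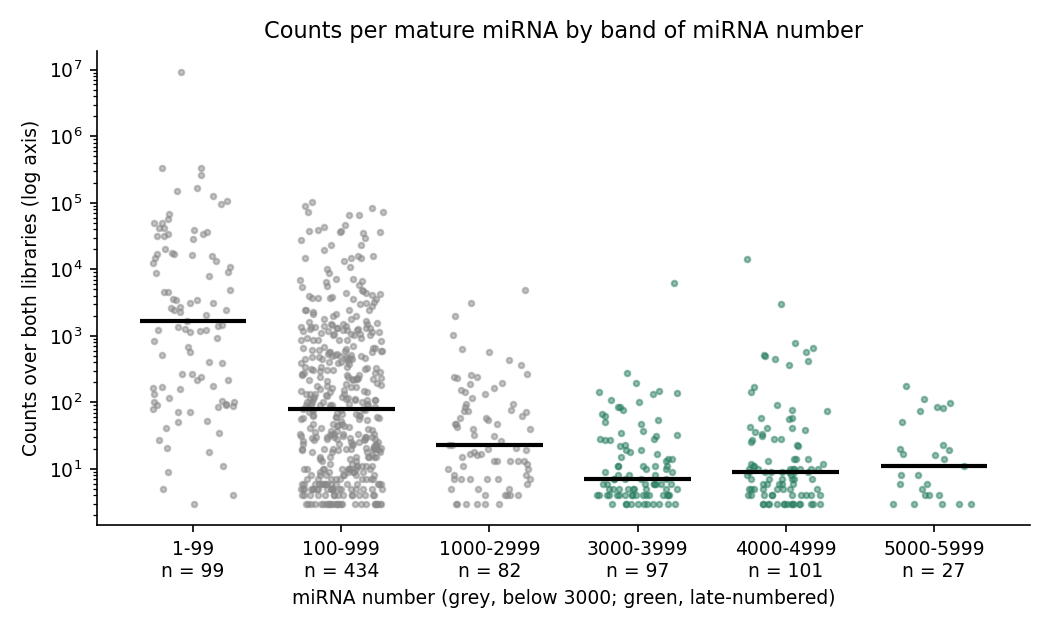
Counts over both libraries (log axis) for each mature miRNA, by band of miRNA number, with 1 point per miRNA and a black line at the median of the band. The medians are 1648, 80 and 23 counts in the 3 bands below 3000 (grey) and 7, 9 and 11 in the late-numbered bands (green), where 3 members with 3022 to 14335 counts stand above the rest.

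At the edge of the rule, the lowest-numbered members were miR-3064-3p (8 counts in normoxia and 19 in hypoxia), miR-3064-5p (2 and 2), miR-3065-3p (1 and 3) and miR-3065-5p (16 and 15). The nearest miRNAs below the limit were miR-2682-3p (215 and 425), miR-2682-5p (21 and 26) and miR-2964a-5p (3 and 14). The highest-numbered members were miR-5697 (1 and 2), miR-5699 (33 and 78) and miR-5701 (24 and 62).

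The rule did not read the sequences, though names partly follow them. Sequence features are given here beside those of the other mature miRNAs, as a description. The median length was 22 nt in both, but 28 of the 193 members with a RefSeq sequence (14.5%) were shorter than 20 nt, against 13 of 492 others (2.64%). The short sequences were not particular to the members, since the band from 1000 to below 3000 held 8 of the 13 others, 14.5% of its 55 sequences. Among the members they were 24 of 89 (27.0%) in the 4000s, 3 of 81 in the 3000s and 1 of 23 in the 5000s. Short members were also among the abundant ones, since miR-3182 has 17 nt and miR-4256 and miR-4791 have 18 nt.

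The median GC content was 50% in members and 47.8% in the others, with a range from 27.3% to 94.4% in members. It was 56.5% in the band from 1000 to below 3000, above the members. A U at the first base was found in 43.0% of members and 37.0% of the others. A 5p or 3p suffix, which is given where both arms are known, was carried by 122 members (54.2%), 58 of them 5p and 64 of them 3p, and by 456 of the others (72.2%). The share of the others was uneven, with 30 of 82 (36.6%) in the band from 1000 to below 3000, lower than in the members. Of the 22 members that passed the expression filter only 4 carried such a suffix.

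A few members made up most of the counts, with 72.5% in normoxia and 71.3% in hypoxia on the top 3. For miR-4301, 4964 counts were found under normoxia (1099 CPM, interval 1069 to 1130) and 9371 under hypoxia (1090 CPM, 1068 to 1112), which was 43.8% and 43.7% of all counts on late-numbered miRNAs. It ranked 60 among the 859 mature miRNAs by mean CPM. On the mature total its log2 ratio was -0.01 and the interval held 0 (-0.06 to 0.04). This depended on the scaling, since under TMM the ratio was -0.13 (-0.18 to -0.08) and with totals without the 10 most abundant miRNAs it was -0.21 (-0.26 to -0.16).

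In miR-3182 there were 2157 counts (478 CPM) under normoxia and 3987 (464 CPM) under hypoxia, which gave a log2 ratio of -0.04 (-0.12 to 0.03), and of -0.16 (-0.23 to -0.08) under TMM. miR-4256 had 1094 counts (242 CPM) and 1928 (224 CPM), with a log2 ratio of -0.11 (-0.22 to -0.004). These 3 members together took 8215 of the 11323 counts in normoxia and 15286 of the 21438 in hypoxia. Without them the share of the other 222 was 0.0688% (0.0664% to 0.0713%) in normoxia and 0.0715% (0.0698% to 0.0733%) in hypoxia.

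The next members were lower. miR-4791 had 333 counts in normoxia (73.8 CPM) and 449 in hypoxia (52.2 CPM), and miR-4454 had 295 (65.3 CPM) and 369 (42.9 CPM). Both were thus lower in hypoxia. They were followed by miR-4326, miR-4517, miR-4270, miR-4286 and miR-4305.

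Of these, miR-4517 had 180 and 332 counts (39.9 and 38.6 CPM), miR-4286 had 156 and 293 (34.6 and 34.1 CPM) and miR-4305 had 31.9 and 31.3 CPM. The levels of these 3 did not differ between the libraries beyond the counting intervals. miR-4326 had 161 and 408 counts (35.7 and 47.4 CPM), and miR-4270 had 130 and 367 (28.8 and 42.7 CPM), both higher in hypoxia. miR-4517 and miR-3615 (99 and 177 counts) are in untranslated regions of NFATC2IP and SLC9A3R1, and miR-4305 is opposite an intron of COG6, a subunit of a Golgi complex.

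**Figure D2:**
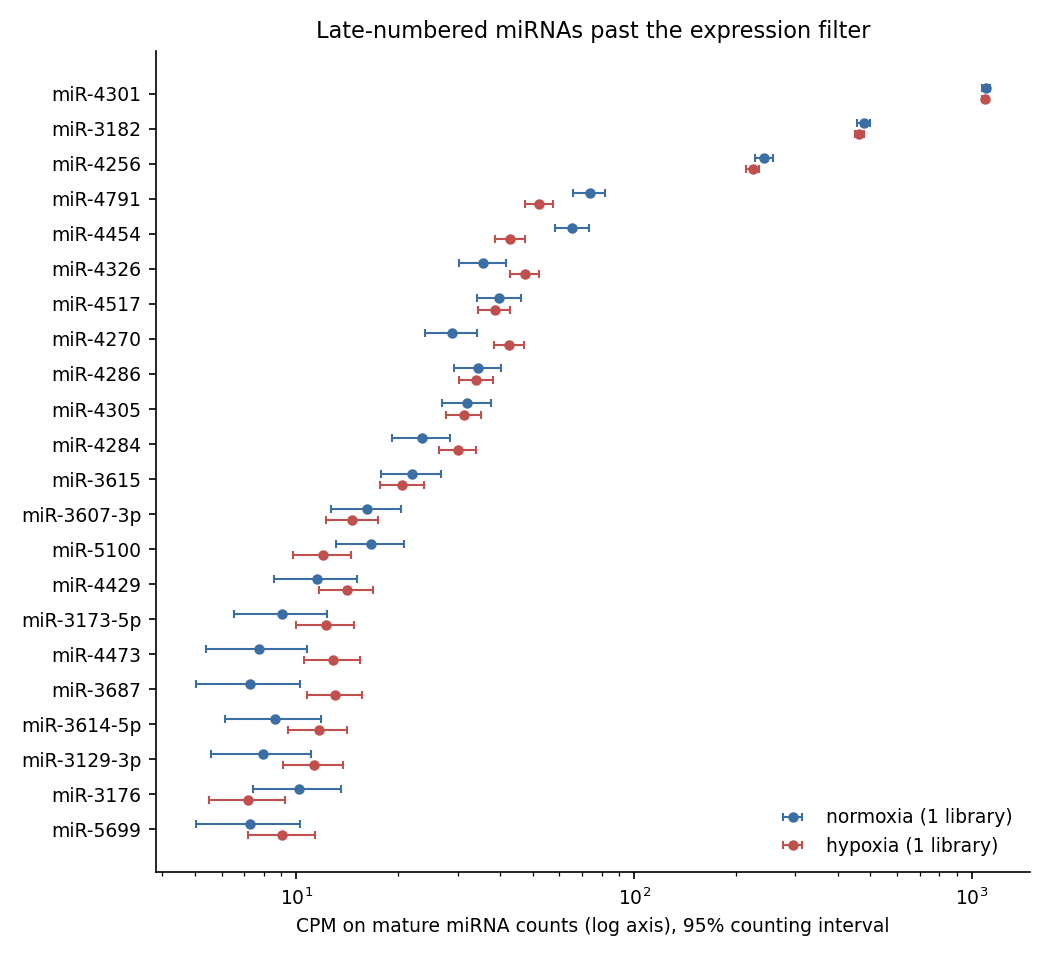
CPM in normoxia (blue) and hypoxia (red), 1 library each, for the 22 late-numbered miRNAs past the expression filter, on a log axis with exact 95% counting intervals. miR-4301, miR-3182 and miR-4256 stand between 224 and 1099 CPM, and the highest other value is 73.8 CPM for miR-4791 in normoxia.

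The comparison of hypoxia with normoxia asked which miRNAs differ with the oxygen level. A miRNA was called when its log2 ratio was 0.9 or more, or -0.9 or less, and when it passed the expression filter of a mean log2 CPM above 3. The ratios used a prior count of 2, and this is called the size rule below. The filter was passed by 22 of the 225 members (9.78%) and by 315 of the 632 others (49.8%). None of the 22 was called in either direction. Among all 339 mature miRNAs past the filter, 12 were called higher (3.54%) and 11 lower (3.24%), which makes 23 in both directions (6.78%). The split was 8 higher and 15 lower with TMM scaling, 5 and 18 with totals that left out the 10 most abundant miRNAs, and 15 and 8 with the hypoxia library thinned to the normoxia total. None of the members was called under these 3 settings.

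The left-out pair would have been called. miR-4521 had 2325 counts in normoxia and 455 in hypoxia (log2 ratio -3.28, -3.43 to -3.14), and miR-4500 had 106 and 43 (-2.17, -2.78 to -1.71). With them, the late-numbered share of mature counts was 0.305% in normoxia and 0.255% in hypoxia and the log2 ratio of the sums was -0.26 (-0.29 to -0.23). The absence of calls among the members therefore depends on this choice.

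The log2 ratios of the 22 members ran from -0.60 to 0.81 with a median of -0.02, beside a median of 0.08 for all 339. The ratio was above 0 in 10 members and below 0 in 12. The counting interval was wholly above 0 in 5 members and wholly below 0 in 4, and it held 0 in 13. Over the 339 miRNAs it was above 0 in 124 (36.6%) and below 0 in 90 (26.5%), and the members' counts of 5 and 4 in 22 are below these shares. The members also had lower counts than most of the others, which widens their intervals.

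The 5 members with an interval above 0 were all below the size rule. miR-3687 had 33 counts in normoxia and 112 in hypoxia (7.31 and 13.0 CPM, log2 ratio 0.81, 0.26 to 1.44), and it was the highest ratio of the 22. miR-4473 had 35 and 110 counts (7.75 and 12.8 CPM, 0.70, 0.16 to 1.31). miR-4473 is within an intron of MLLT3, which encodes a subunit of a transcription elongation complex.

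The ratio of miR-4270 was 0.56 (0.28 to 0.87), that of miR-4326 was 0.41 (0.15 to 0.68) and that of miR-4284 was 0.35 (0.02 to 0.69), the last with 106 counts in normoxia and 258 in hypoxia. The 5 log2 ratios thus lay between 0.35 and 0.81, below that of miR-210 at 1.48. The interval of miR-4284 held 0 under each of the other 3 scalings, and those of miR-4326 and miR-4473 did so with totals without the 10 most abundant miRNAs. miR-4270 is within an intron of COLQ, the collagen tail of acetylcholinesterase, and miR-4284 is opposite an intron of STX1A, which encodes a syntaxin.

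The 4 members with an interval below 0 included miR-4791 and miR-4454, which ranked 4 and 5 in abundance. miR-4454 had the lowest ratio of the 22, at -0.60 (-0.83 to -0.38), and miR-4791 followed at -0.50 (-0.71 to -0.29). miR-5100 had 75 and 103 counts (16.6 and 11.98 CPM, -0.46, -0.92 to -0.02). The ratio of miR-4256 was -0.11 as given above, -0.23 under TMM and -0.31 with totals without the 10 most abundant miRNAs.

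For the other 13 members the interval held 0. miR-3173-5p (41 and 105 counts), miR-3614-5p (39 and 100) and miR-3129-3p (36 and 97) had log2 ratios of 0.41, 0.42 and 0.48, and miR-3176 (46 and 62) had -0.48. The upper ends of the first 3 intervals were 0.98, 1.00 and 1.10 and the lower end of the interval of miR-3176 was -1.07, so ratios past the size rule were within counting error. miR-3173 is within an intron of DICER1, the nuclease that cuts miRNA hairpins.

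**Figure D3:**
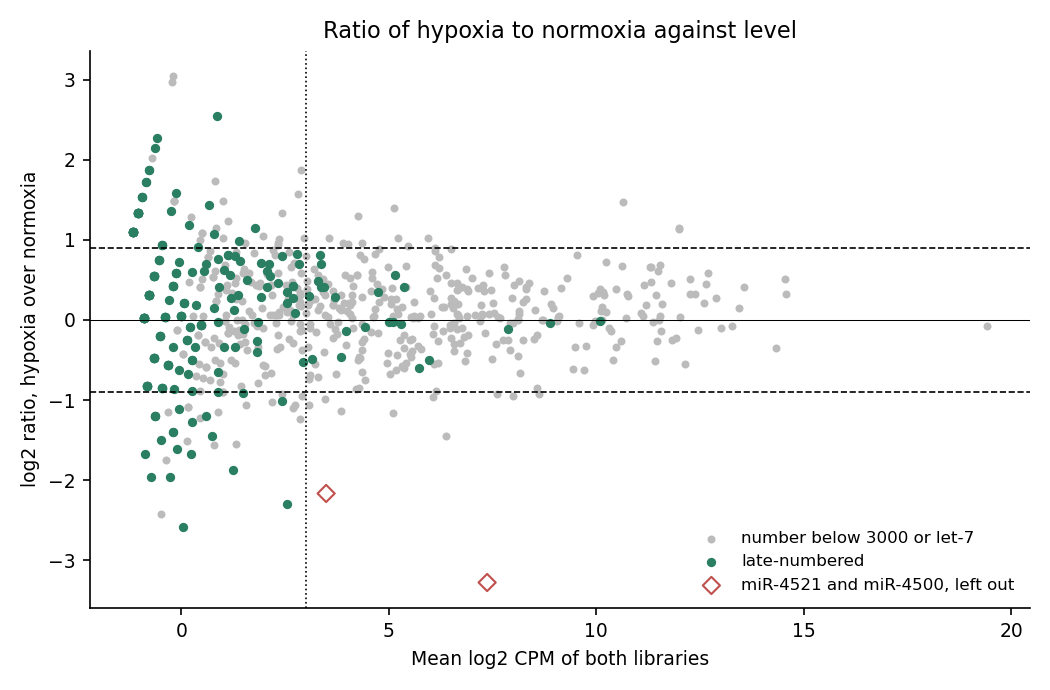
log2 ratio of hypoxia over normoxia against the mean log2 CPM for all 859 mature miRNAs, with late-numbered members in green, the others in grey and the left-out miR-4521 and miR-4500 as open diamonds. The dotted line is the expression filter at 3 and the dashed lines are the size rule at 0.9 in either direction. The 22 members right of the filter lie between -0.60 and 0.81, and the spread is wide on the left, where counts are near the floor.

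The 203 members below the filter had in all 1041 counts under normoxia and 2216 under hypoxia. The log2 ratio of these sums was 0.16 (0.05 to 0.27) on the mature total. Log2 ratios shift by about -0.11 under TMM and -0.20 with totals without the 10 most abundant miRNAs. That the interval lies above 0 thus depends on the scaling. Without the filter, 44 of the 225 members had a log2 ratio of at least 0.9 and 20 had one of at most -0.9, beside 113 (13.2%) and 64 (7.45%) of all 859. Of these 64 members, 14 also had an interval without 0, 5 higher and 9 lower. By the same criterion 34 of the 859 were higher (3.96%) and 34 lower (3.96%). In the higher direction the members' count is below that share and in the lower direction it is near it.

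miR-3676-3p had the most counts among these 14, with 57 under normoxia (12.6 CPM), 20 under hypoxia (2.33 CPM) and a log2 ratio of -2.30 (-3.25 to -1.68). The other arm of its hairpin, miR-3676-5p, had 33 and 30 counts (-1.005, -1.83 to -0.31). miR-4455 had 19 and 8 counts (-1.87, -3.58 to -0.92) and miR-3187-3p had 10 and 1 (-2.58, -9.69 to -1.44). In the other direction, miR-3609 had 9 and 41 counts (1.14, 0.20 to 2.48), miR-3130-5p had 2 and 35 (2.55, 1.24 to 6.30) and miR-4443 had 3 and 20 (1.44, 0.05 to 4.2). Each of these is a pair of small counts from 1 library each.

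The sequences of some members are also found in other small RNAs, and these are shown next because their counts cannot be assigned to the miRNA alone. An exact match within another annotated small RNA of GENCODE or of the deposited table was found for 8 members (3.56%), which held 2.39% of the members' counts in normoxia and 2.42% in hypoxia. Among earlier-numbered miRNAs the same search gave 9 of 631 (1.43%). When the CCA end of mature tRNAs was added and 1 mismatch allowed, the numbers were 13 members (5.78%), with 25.8% and 24.6% of the members' counts (most of them on miR-3182), and 17 earlier-numbered miRNAs (2.69%). The sources used here do not say how a read that matches several features was assigned.

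For members that differ from the other RNA at a few bases, the stretch of that RNA is printed below with the differing bases in capitals.
tRNA-Val (CAC) beside miR-3182: gcuucuguaguguaguG
tRNA-His (GTG) with CCA beside miR-4454: gAauccgagucacggcacca
SNORD20 beside miR-4791: uggauaugaugacugaUU
tRNA-Pro (CGG) beside miR-4448: ggcucGuuggucuaggggua
SNORD43 beside miR-5701: uGauugucacguucugauu
RNY3 beside miR-4301: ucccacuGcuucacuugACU
Positions of substitutions are counted from the 5′ end of the miRNA, with the base of the miRNA first. miR-3182 and the start of this tRNA differ by C17G at the last base, miR-4454 and the 3′ end of the tRNA by G2A, miR-4448 and the start of the tRNA by C6G, and miR-5701 and SNORD43 by U2G. miR-4791 differs from the start of SNORD20 by A17U and A18U, its last bases.

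The ratios of the miRNA and of the other RNA were apart in most of these pairs. The listed tRNA-Val, with 1702 and 3796 counts in the normoxia and hypoxia libraries, had a log2 ratio on the same scale of 0.23 (0.14 to 0.31), beside -0.04 for miR-3182. Of the tRNA-His features with the stretch printed above, the one with most counts had a ratio of 0.32 (0.04 to 0.62). The ratio of miR-4454 was -0.60, and their intervals do not overlap. All 10 tRNA-His features with this stretch had 1097 and 2622 counts together.

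SNORD20 had 244 and 453 counts (-0.04, -0.26 to 0.19), beside -0.50 (-0.71 to -0.29) for miR-4791. SNORD20 is a box C/D small nucleolar RNA, a class that guides methylation of ribosomal RNA. miR-4286 was within the CCA end of a tRNA-Leu (TAA) with 1195 and 4846 counts. The ratio of this tRNA was 1.09 (1.00 to 1.18), whereas that of miR-4286 was -0.02 (-0.31 to 0.27).

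miR-4284 is identical to a stretch of the mitochondrial tRNA for phenylalanine (MT-TF), of the sequence gGGCUCACaucaccccau with the seed in capitals. MT-TF had 12763 and 21106 counts (-0.20, -0.24 to -0.17), beside 106 and 258 (0.35, 0.02 to 0.69) for the miRNA. miR-4485 (40 and 52 counts, -0.53, -1.17 to 0.08) is identical to a stretch of MT-RNR2, the mitochondrial large ribosomal RNA. Both miR-3607 arms are within a listed snoRNA with 124 and 232 counts (-0.03, -0.35 to 0.30), and miR-3607-3p itself had 73 and 126 (-0.14, -0.57 to 0.29).

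miR-3676-5p is identical to a stretch of tRNA-Thr (AGT), and in the hg19 coordinates of the table it lies within this tRNA gene at chr17:8090477-8090551, while miR-3676-3p adjoins the end of the gene. The tRNA had 660 and 1330 counts (0.08, -0.05 to 0.22), while the miR-3676 arms were at -1.005 and -2.30. It is 1 of 12 listed features with the miR-3676-5p stretch, which had 1254 and 2990 counts together. SNORD43 had 1921 and 4097 counts (0.16, 0.08 to 0.24) and miR-5701 had 24 and 62 (0.42, -0.26 to 1.18). miR-3651, miR-3653 and miR-5096 are identical to stretches of SNORA84, SNORD125 and RN7SL405P, and each had at most 27 counts in a library.

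miR-4301 had no match with at most 1 mismatch, and neither had miR-4791. The sequence nearest to miR-4301 was a Y RNA pseudogene, with 2 differences (U18A and A20U) and 0 and 3 counts. Of the 4 Y RNAs, small RNAs that bind the Ro protein, RNY3 was the closest with 4 differences, RNY1 had 5, and RNY4 and RNY5 had 8. RNY3 had 4009 and 6486 counts (-0.24, -0.29 to -0.18) and RNY1 had 14313 and 34224 (0.33, 0.30 to 0.36). RNY4 had 11081 and 26603 (0.33, 0.30 to 0.37) and RNY5 had 46038 and 88756 (0.02, 0.001 to 0.03). The ratio of miR-4301 was -0.01 (-0.06 to 0.04), and of the 4 only the interval of RNY5 overlaps this one.

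A list of 13 late-numbered hairpins was taken as coming from snoRNA, rRNA, tRNA or mitochondrial sequence. Of these, 11 were listed with 13 mature forms. The search above, with CCA and at most 1 mismatch, found no match for miR-5100, miR-3687, miR-3676-3p, miR-4484, miR-4461 and miR-3648. miR-4454, miR-3607-3p, miR-5100 and miR-3687 passed the expression filter. The others were lower, down to miR-4484 (6 and 5 counts), miR-4461 (4 and 3), miR-3648 (1 and 5) and miR-3653 (1 and 2).

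**Figure D4:**
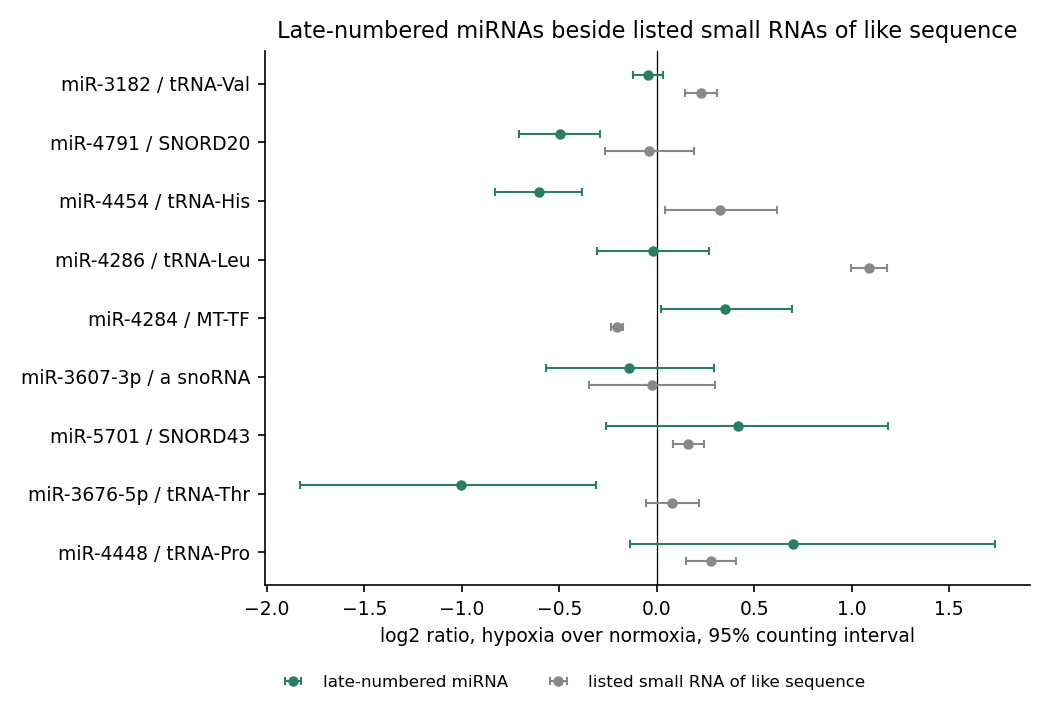
log2 ratio of hypoxia over normoxia with exact 95% counting intervals for 9 late-numbered miRNAs (green) and for the listed small RNA with the same or nearly the same sequence (grey), ordered by the counts of the miRNA. The intervals overlap for miR-3607-3p, miR-5701 and miR-4448 and do not overlap for miR-3182, miR-4454, miR-4286, miR-4284, miR-4791 and miR-3676-5p. Where several listed features hold the stretch equally well, the grey point is the one with most counts. It is 1 of 10 for miR-4454, 1 of 2 for miR-5701, 1 of 12 for miR-3676-5p and 1 of 19 for miR-4448. The 19 features for miR-4448 had 8218 and 14474 counts together, and ratios of such sums are not plotted.

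Few members share a seed with a known family. The 225 members had 221 distinct seeds, and 13 members (5.78%) had the same bases 2 to 8 as an earlier-numbered miRNA in the table. With bases 2 to 7 this was 39 members (17.3%). By comparison, 215 of 631 earlier-numbered miRNAs (34.1%) shared their seed with another of these 631. Names are not free of sequence, since relatives such as miR-320a to miR-320d carry the same number with a letter and count as earlier-numbered. The choice by number keeps such relatives out of the members, so no conclusion is drawn from the difference in shares. Within the members, 4 pairs had a common seed, which were miR-3129-3p and miR-5583-5p, miR-4421 and miR-5699, miR-3676-5p and miR-4683, and miR-4755-5p and miR-5006-3p.

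The 4 most abundant members with the seed of a known family are shown with the seed in capitals, and 3 of them beside a miRNA of that family.
miR-4429: aAAAGCUGggcugagaggcg
miR-320b: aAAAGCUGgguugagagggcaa
miR-4319: uCCCUGAGcaaagccac
miR-125a-5p: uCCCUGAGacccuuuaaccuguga
miR-3118: uGUGACUGcauuaugaaaauucu
miR-4306: uGGAGAGAaaggcagua
miR-185-5p: uGGAGAGAaaggcaguuccuga
miR-4306 and miR-185-5p have the same first 16 bases, and miR-4429 and miR-320b the same first 10, while miR-4319 and miR-125a-5p share the first 8.

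Most of the more abundant of the 13 were a small part of their seed families. miR-4429 had 52 and 121 counts, beside 15088 and 29016 for miR-320a to miR-320d, and so made up 0.391% of the counts with that seed. miR-4319 (22 and 54) made up 0.0623% beside miR-125a-5p and miR-125b-5p (37413 and 84502), and miR-4676-3p (16 and 25) made up 0.274% beside miR-452-5p. miR-4458, with the let-7 seed, had 1 and 4 counts beside 63513 and 132977 for the let-7 family. The miR-125 and let-7 families are known as regulators of differentiation and growth.

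Among the 13, a larger part was found where the known miRNA was itself low. miR-3118 (18 and 48 counts) made up 23.2% beside miR-134 (73 and 146), and miR-4664-5p (17 and 24) made up 30.2% beside miR-342-5p (28 and 67). miR-4306 (15 and 43) made up 1.58% beside miR-185-5p (1240 and 2369). It has 17 nt, and its first 16 bases are those of miR-185-5p. Whether its counts come from shortened miR-185-5p was not tested. The log2 ratio of miR-4306 was 0.55 and that of miR-185-5p was 0.00, and with 58 counts in all for miR-4306 the difference was not tested.

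Both arms were listed for 31 late-numbered hairpins, and 18 of them had at least 20 counts over both libraries. The 5p arm had more counts in 7 of the 18 and the 3p arm in 7, with an interval that left out 50%, and in 4 the interval held 50%. The clearest cases were miR-3173 with 96.1% of its counts on the 5p arm (91.6% to 98.5%), miR-3614 with 93.3% (88.0% to 96.7%) and miR-3607 with 8.29% (4.99% to 12.8%). In miR-3065 the 5p arm had 88.6% of 35 counts, and in miR-4676 and miR-4758 it had 19.6% of 51 and 16.3% of 43.

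miR-3676 was the hairpin with many counts in which no arm prevailed over both libraries together, with 45.0% on the 5p arm (36.6% to 53.6%). In normoxia this share was 36.7% (26.7% to 47.5%, 90 counts) and in hypoxia 60% (45.2% to 73.6%, 50 counts). The intervals overlap. For miR-3173 and miR-3614 the shares were alike in both libraries, with 95.3% and 96.3% for the former and 88.6% and 95.2% for the latter.

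**Figure D5:**
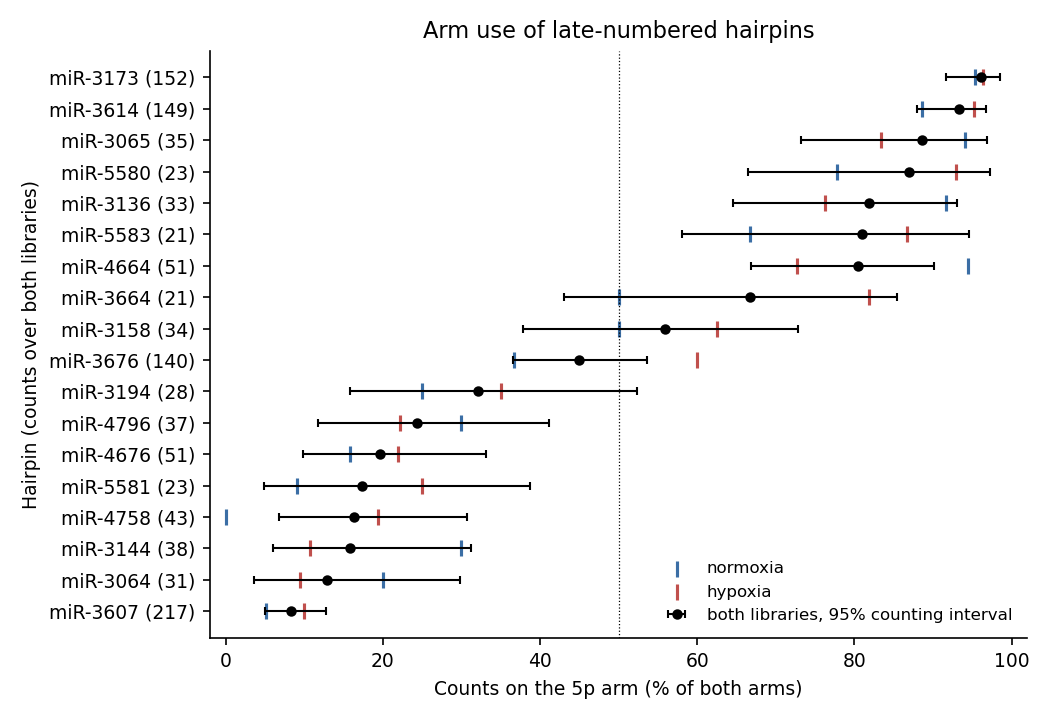
Share of counts on the 5p arm, in percent of both arms, for the 18 late-numbered hairpins with both arms listed and at least 20 counts. Black points are both libraries together with exact 95% counting intervals, and blue and red marks are normoxia and hypoxia. The intervals of 7 hairpins lie above 50%, those of 7 below, and those of miR-3676, miR-3158, miR-3194 and miR-3664 hold 50%.

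The 193 members with a RefSeq entry came from 188 loci on 22 chromosomes, 165 with a hairpin entry and 23 placed by their mature sequence. None of these loci was on chromosome 8, where the listed miR-4661-5p lies, which had no entry in the RefSeq set used. Of the 188 loci, 98 were within introns and 30 within exons of a gene on the same strand, 28 were opposite a gene only and 32 overlapped no other gene of GENCODE version 29. The host was a protein-coding gene in 105. Overlap with an untranslated region was found for 8 loci and with coding sequence for 9, among them MIR3940 in KHSRP, which encodes an RNA-binding protein, and MIR4758 in LAMA5, a laminin chain. There were 18 members at more than 1 locus, with 4 at most, and their counts cannot be assigned to a locus.

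Members on the opposite strand of a known hairpin had few counts. There were 4 such loci, opposite MIR338 (miR-3065), MIR24-1 (miR-3074), MIR214 (miR-3120) and MIR122 (miR-3591). miR-3065-5p had 16 and 15 counts and miR-3065-3p 1 and 3, miR-3074-5p had 0 and 4 and miR-3074-3p 2 and 3, and both miR-3120 arms had 0 counts in normoxia and 3 or 4 in hypoxia. miR-3591-5p had 1 and 6 counts. Except for miR-3065-5p (log2 ratio -0.91, -2.14 to 0.09), these levels are near the floor of 3 counts and no ratio is given.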

How the data were processed

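The table that the authors deposited gives the raw counts of each feature in each library. The submitters' processing notes name the genome build hg19, and the aligner and the miRNA annotation are not given in the sources used here. Members and lists were chosen with earlier results of these data known. The 225 members were read from the names. Named miRNAs were the 15 members with the highest mean CPM, the 5 largest and 5 smallest log2 ratios among members past the filter with a counting interval without 0 (of the smallest, 4 existed), the 10 hairpins with most counts on both arms, the 10 most abundant members with a shared seed, the edges of the number range, and fixed lists of antisense hairpins and of members from other RNAs. Others named, such as miR-3173-5p, miR-4485, miR-3130-5p or miR-4448, were chosen after their values were seen.

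CPM used the total of mature miRNA counts and log2 ratios a prior count of 2. Shares have exact Clopper-Pearson intervals and ratios exact conditional binomial intervals (95%, scipy version 1.17.1 in Python version 3.11.15). No molecular identifiers were used, so intervals cover counting error only. Other scalings were the TMM method of edgeR version 4.0.16 and the size factors of DESeq2 version 1.42.0 in R version 4.3.3. The deposited mature sequences begin 1 base before the mature 5′ end, so sequences and seeds were taken from RefSeq where given (193 members), and 188 of these had the same seed in the table after removal of that base. The calculation was tested on simulated data.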

Additional observations from a re-analysis of the deposited data

How the results depend on the processing

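No paired analysis was possible because there is a single library for normoxia and a single library for hypoxia, so that no replicate could be left out either. No member past the filter was called under TMM, DESeq2 size factors, totals without the 10 most abundant miRNAs, a prior count of 0.5, thinning of the hypoxia library, a log2 threshold of 1 or a minimum of 20 CPM. Without the filter 44 were called higher and 20 lower, and with miR-4521 and miR-4500 added 2 were called lower. The median log2 ratio of the 22 members ran from -0.21 to 0.06 under the alternatives with 22 members, and all ratios moved down by about the same amount under TMM (members' median -0.13, all miRNAs -0.03) and without the 10 most abundant (-0.21 and -0.12). The number of calls among all miRNAs was 8 higher and 15 lower under DESeq2 too. By counting intervals under each scaling, a check added after the data were seen, 4 members were above 0 and 7 below with TMM, 4 and 6 with DESeq2, and 2 and 7 without the 10 most abundant. Over all 339 the shares above and below 0 moved likewise, to 28.9% and 35.4%, 31.0% and 31.6%, and 24.2% and 40.1%. miR-4284 was lost from those above in all 3 and miR-4326 and miR-4473 in the last. miR-4301 and miR-3182 joined those below in all 3, and miR-3176 with TMM and without the 10 most abundant. Of the 22 members, 20 kept the sign of their ratio under all of these, and miR-4301 and miR-3607-3p changed it in 1, at 0.02 and 0.11.

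The share of counts in normoxia and hypoxia was 0.176% and 0.164% of all table counts. It was 1.62% and 1.41% with the 10 most abundant miRNAs of each library taken out of the denominator. With miR-4521 and miR-4500 it was 0.305% and 0.255%, and without miR-4301 it was 0.141% and 0.140%. Without the 8 members with an exact match in another RNA it was 0.245% and 0.243%. With the last 2 bases left out of the search, 11 members matched, miR-3182 and miR-4791 among them. These 11 held 25.8% of the members' counts in normoxia and 24.5% in hypoxia, and the share without them was not calculated. With 10 counts in place of 3, 52 members were detected in normoxia and 75 in hypoxia, and 120 were detected at 3 counts in the hypoxia library thinned to the normoxia total, beside 125 in normoxia. The share of members with a known seed was 17.3% with bases 2 to 7. Allowing 1 mismatch and CCA, a criterion chosen after the data were seen, 13 members were contained in another RNA. The order of members below about 10 CPM is limited by depth.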
